A study of Mus musculus with 23 samples.

Results

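The 6 genes Dnmt1, Dnmt3a, Dnmt3b, Tet1, Tet2 and Tet3, which encode the enzymes that write and oxidise DNA methylation in the mouse, were followed across 23 RNA sequencing libraries. They were taken by name from a table of 54347 genes, and all 6 were present once and passed the filter on low counts in every comparison. The libraries came from the labial cervical loop of the lower incisor, the stem cell niche at the growing end of the tooth, of mice at postnatal day 2. All mice carried the Sox2-GFP reporter, in which the endogenous Sox2 promoter drives green fluorescent protein, and no other allele or treatment is named in the labels. Dissociated cells were sorted into a Sox2-positive population, called dental epithelial stem cells by the submitters, and a Sox2-negative population, which holds every other cell of the dissected region. Batch A gave 6 Sox2-negative and 6 Sox2-positive libraries, and batch B gave 4 and 7. Each batch had its own day and its own mice. The labels do not tell whether the libraries within a batch are separate animals or split sorts, so p-values measure the spread between these libraries, which may be technical.

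DNA methyltransferases place a methyl group on cytosine, mostly where it precedes guanine. Dnmt1 copies the pattern of the old strand onto the new strand behind the replication fork, guided there by Uhrf1, whereas Dnmt3a and Dnmt3b methylate unmarked sites. The Tet enzymes oxidise the methyl group, after which the modified base is lost through replication or removed by base excision. Methylation itself was not analysed here, and all values below are RNA levels. No strand setting is given for the counts, so reads of antisense genes cannot be told apart where exons overlap. Those genes, Dnmt3aos at Dnmt3a and Gm42567 at Tet2, had at most 3.86 and 5.01 counts in any library.

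The sort was checked first. Sox2 averaged 7.38 ± 4.47 CPM (SD, n = 6) in the Sox2-positive libraries of batch A and 16.8 ± 2.97 CPM (n = 7) in those of batch B, where CPM is the count scaled to a common library total with TMM factors. It had no count in 5 of 6 batch A and 3 of 4 batch B Sox2-negative libraries. Summed over 9 epithelial markers, the Sox2-positive libraries ranged from 4406 to 6632 CPM and the Sox2-negative libraries from 159 to 471 CPM. Summed over 9 mesenchymal markers, Sox2-positive libraries ranged from 1402 to 1955 CPM in batch A and from 706 to 863 CPM in batch B. The Sox2-negative range was 10670 to 14134 CPM. Glial and neural crest markers (6 genes) summed to 789 to 1014 CPM in batch A and 37.7 to 75.5 CPM in batch B Sox2-positive libraries. Their Sox2-negative sums were at most 14.5 and 13.3 CPM. Ameloblast markers (6 genes) were higher in Sox2-negative libraries, for example at 705 to 915 against 292 to 359 CPM in batch A. The part of such cells in the population differences below was not tested. Library totals ran from 2305778 to 9541443 estimated counts, with a median of 4831091. At this depth 3 counts, taken as the smallest level that can be shown, correspond to 0.314 to 1.30 CPM, a limit that covers counting error only. The batch B Sox2-positive libraries numbered 1 and 2 stood apart from the other 5, for example at 85.2 to 98.3 CPM of Dnmt3a against 191.5 to 235.1 CPM. The Sox2-negative libraries numbered 1 and 2 overlapped the others of their group in Dnmt3a, at 128.1 to 201.9 against 168.5 to 264.0 CPM. They lay above the others in Dnmt1, at 204.2 to 254.3 against 146.3 to 196.2 CPM. Leaving out the libraries numbered 1 and 2 keeps 2 Sox2-negative and 5 Sox2-positive libraries of batch B. A call lost in this way may be lost through the smaller number alone. Each call of a member below that uses batch B is given with and without these libraries.

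For orientation, the DNA just upstream of the genes that differed in some comparison is shown, because the CpG content of a promoter bears on how methylation can act on the gene itself. RefSeq gives 10 start sites for the 6 genes in the GRCm38.p6 build, and the 250 bases before 6 of these starts overlap no annotated exon. Of those, 1 window each is printed for Dnmt1 (chr9:20952980-20953229, minus strand, before its start at 20952979), Dnmt3b (chr2:153649199-153649448, plus strand), Tet2 (chr3:133544391-133544640, minus strand) and Tet3 (chr6:83441679-83441928, minus strand). Each runs 5′ to 3′ toward the start, with every CpG in capitals:
Dnmt1: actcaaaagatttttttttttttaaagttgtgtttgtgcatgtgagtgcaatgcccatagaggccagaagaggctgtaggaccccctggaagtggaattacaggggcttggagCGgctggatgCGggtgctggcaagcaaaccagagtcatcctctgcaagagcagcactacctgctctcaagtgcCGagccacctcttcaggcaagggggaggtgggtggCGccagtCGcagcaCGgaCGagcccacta
Dnmt3b: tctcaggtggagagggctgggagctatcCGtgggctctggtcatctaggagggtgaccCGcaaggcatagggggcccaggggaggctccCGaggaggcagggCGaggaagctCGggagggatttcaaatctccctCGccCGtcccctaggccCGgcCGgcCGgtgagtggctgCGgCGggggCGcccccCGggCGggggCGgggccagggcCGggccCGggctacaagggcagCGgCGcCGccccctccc
Tet2: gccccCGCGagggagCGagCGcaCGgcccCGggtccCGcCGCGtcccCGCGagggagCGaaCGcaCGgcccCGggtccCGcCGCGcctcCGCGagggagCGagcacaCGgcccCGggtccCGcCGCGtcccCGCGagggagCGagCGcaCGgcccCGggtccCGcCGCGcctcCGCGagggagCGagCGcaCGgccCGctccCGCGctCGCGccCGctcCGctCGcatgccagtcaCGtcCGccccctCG
Tet3: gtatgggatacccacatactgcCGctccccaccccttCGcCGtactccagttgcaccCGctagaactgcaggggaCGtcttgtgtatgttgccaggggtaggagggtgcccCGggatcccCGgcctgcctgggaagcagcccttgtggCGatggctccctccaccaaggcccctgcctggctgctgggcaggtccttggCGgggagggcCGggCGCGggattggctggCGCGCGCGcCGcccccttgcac
The Dnmt1 window holds 7 CpG, the Tet3 window 17, the Dnmt3b window 21 and the Tet2 window 51. The median over all 32851 RefSeq windows of the same length was 6. Fewer CpG than in the Tet2 window were found in 99.9% of all windows, and fewer than in this Dnmt1 window in 53.7%. The other starts of Dnmt1 had 2 and 26 CpG before them, with fewer in 18.8% and 90.4% of all windows. The Dnmt1 window with 26 CpG overlaps an annotated exon and that with 2 does not, and neither is printed. The 3 starts of Dnmt3a had 38, 40 and 15. The single Tet1 start had 15. The Dnmt3b window lies outside the annotated gene, and the other 3 printed windows lie in introns of longer transcripts of the same gene.

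Dnmt1, the maintenance methyltransferase (ENSMUSG00000004099.16, chr9:20907209-20959888, minus strand), was the member that set 1 group apart from all others. Its level was 254.3, 204.2, 146.3 and 196.2 CPM in the 4 Sox2-negative libraries of batch B. The 7 batch B Sox2-positive libraries ran from 51.5 to 95.5 CPM with a median of 60.5 CPM. Batch A Sox2-negative libraries lay between 65.4 and 113.8 CPM with a median of 93.3 CPM, and batch A Sox2-positive libraries between 56.1 and 92.9 CPM with a median of 76.1 CPM. Every batch B Sox2-negative library therefore lay above every other library, and the remaining 3 groups overlapped one another. For this and for the same order in Mat2a below, the share of all genes was not computed, and both are descriptions.

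**Figure D1:**
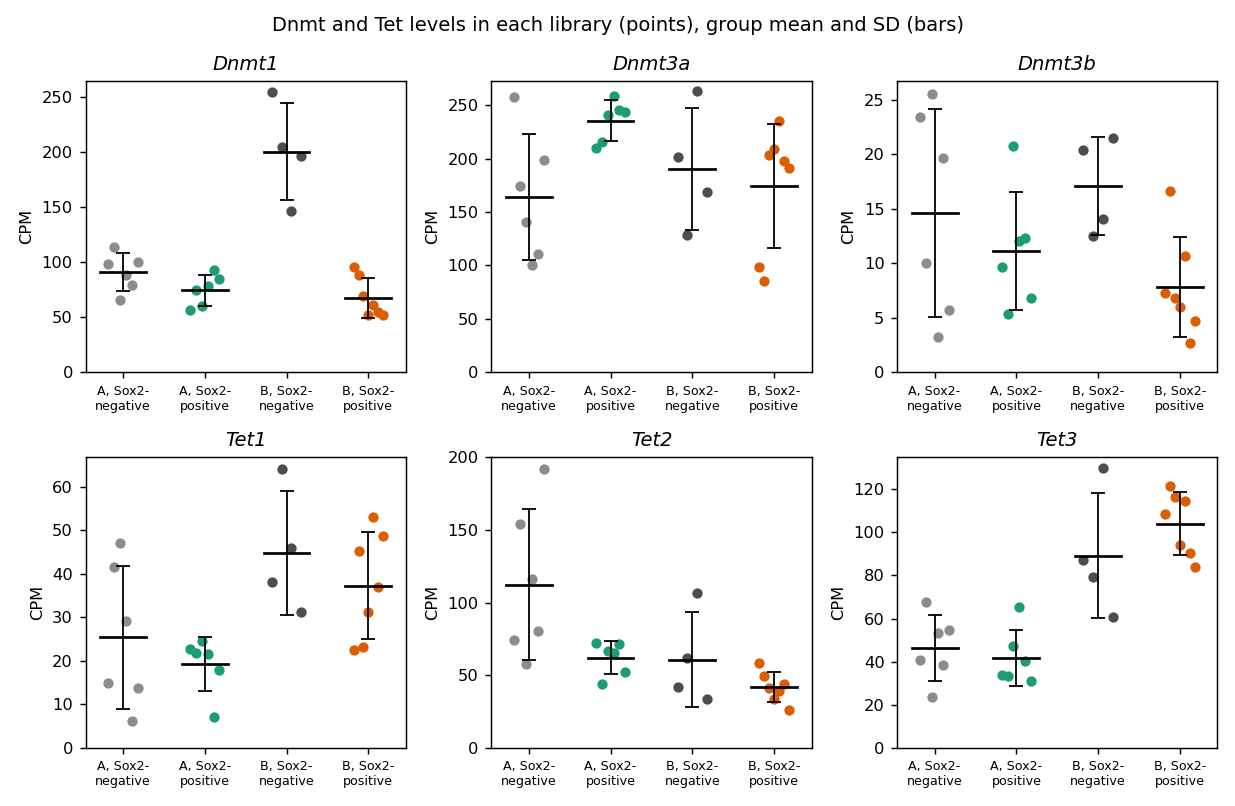
Levels of the 6 genes in CPM (y axis, linear, starting at 0, with a scale of its own for each gene) in the 4 groups (x axis). Points are libraries, horizontal bars are group means and error bars are SD (n = 6, 6, 4 and 7); for Dnmt1 the batch B Sox2-negative points, from 146.3 to 254.3 CPM, sit above all others, and for Tet3 both batch B groups sit high, between 60.8 and 129.8 CPM.

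In batch B, Dnmt1 was 3.01-fold lower in Sox2-positive cells (log2 fold change -1.59, SE 0.18, edgeR adjusted p 1.85e-06). A two-sided exact permutation test of the mean levels gave p 0.0030, the smallest that the 330 assignments of these libraries allow. Batch A alone gave -0.36 (SE 0.18, edgeR adjusted p 0.116), and the exact permutation p was 0.0931. Over both batches, with batch as a covariate, Dnmt1 fell by 0.99 on the log2 scale (SE 0.18, edgeR adjusted p 3.89e-05). The difference between the batches in this contrast was itself called, at -1.30 (SE 0.26, edgeR interaction adjusted p 0.00198). Without the batch B libraries numbered 1 and 2, the batch B value was -1.59, that over both batches -0.75 and the interaction -1.26, all still called (edgeR adjusted p 2.03e-05, 0.00131 and 0.0124). In such bulk libraries, fewer cells of a type and less RNA per cell cannot be told apart.

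Between batches, Dnmt1 was 2.20-fold higher in batch B than in batch A Sox2-negative cells (log2 fold change 1.13, SE 0.20, edgeR adjusted p 0.000256), a value of 0.88 without the libraries numbered 1 and 2 (edgeR adjusted p 0.0195). Within Sox2-positive cells the log2 difference between batches was -0.16 (SE 0.17, edgeR adjusted p 0.678). The batches also differed in the makeup of the Sox2-negative sort. Summed over 6 erythroid markers, batch B Sox2-negative libraries held 52531 to 59142 CPM and batch A Sox2-negative libraries 957 to 1139 CPM. In Sox2-positive libraries this sum was at most 12.2 CPM. Of the 6, 5 were called higher in batch B Sox2-negative cells by edgeR. Leukocyte markers (9 genes) summed to 542 to 668 CPM in batch B and 2523 to 2951 CPM in batch A Sox2-negative libraries, with 6 of 9 called lower in batch B. Endothelial markers (6 genes) summed to 222 to 356 and 846 to 1233 CPM, with 6 of 6 called lower. None of the leukocyte, endothelial or erythroid genes was at 0 in every library of a Sox2-negative group. The part of these cells in the Dnmt1 difference was not tested.

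Uhrf1, the protein that recruits Dnmt1 to newly copied DNA, had a different order of groups. It averaged 218 ± 28.4 CPM in batch A Sox2-positive libraries (SD, n = 6) against 90.4 ± 18.8 CPM in batch A Sox2-negative libraries (n = 6). The corresponding batch B means were 115 ± 19.8 CPM (n = 7) and 108 ± 17.2 CPM (n = 4). It was thus called higher in Sox2-positive cells of batch A (log2 fold change 1.20, SE 0.15, edgeR adjusted p 8.19e-06) and not in batch B (0.082, SE 0.16, adjusted p 0.683), with a called interaction of -1.18 (adjusted p 0.000912). The log2 ratio of Dnmt1 to Uhrf1, computed from CPM in each library, averaged 0.010 in Sox2-negative and -1.56 in Sox2-positive libraries of batch A, and 0.88 and -0.79 in those of batch B. Within batch A its highest Sox2-positive value, -1.33, lay below its lowest Sox2-negative value, -0.57. In batch B those values were 0.078 and 0.49, so the ratio did not overlap between the populations in either batch. Of single genes, 28.4% in batch A and 38.1% in batch B did the same, and no share was computed for ratios. The gene called between the populations was Uhrf1 in batch A and Dnmt1 in batch B. The high Sox2-positive ratios in batch B came from the libraries numbered 1 and 2, where Dnmt1 was higher and Uhrf1 lower. Dnmt1 was 95.5 and 87.9 CPM there, against 51.5 to 69.0 CPM in the other 5. Uhrf1 was 83.2 to 99.4 CPM against 108.7 to 144.7 CPM.

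**Figure D2:**
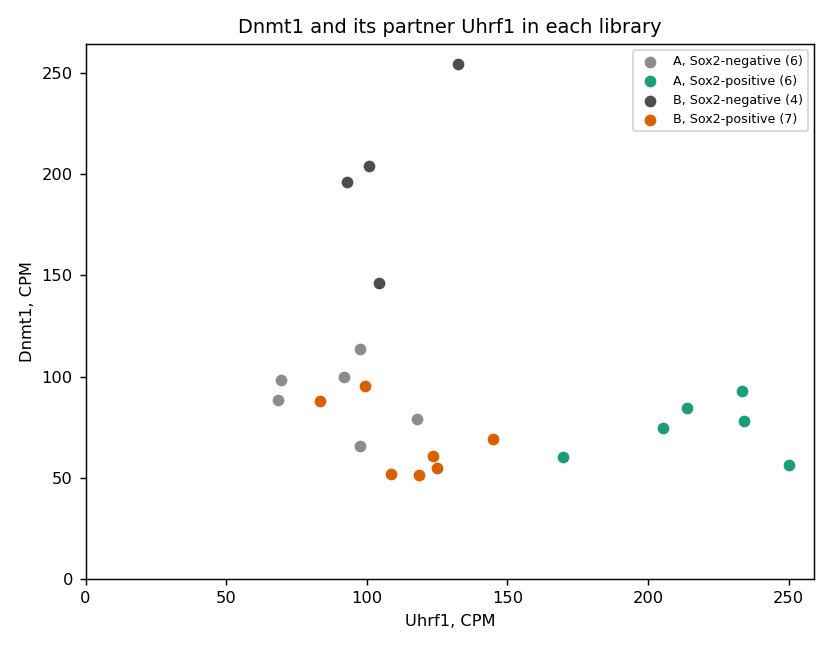
Dnmt1 (y axis) against Uhrf1 (x axis), both in CPM on linear axes from 0; each point is a library and colours mark the 4 groups. Batch B Sox2-negative libraries stand apart in height, at 146.3 CPM of Dnmt1 and above, and batch A Sox2-positive libraries stand apart to the right, at 170 to 250 CPM of Uhrf1.

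Dnmt3a, a de novo methyltransferase (ENSMUSG00000020661.15, chr12:3806007-3914443, plus strand), was not called in any comparison. The 6 batch A Sox2-positive libraries kept to a narrow band, from 210.0 to 259.0 CPM with a median of 242 CPM. Batch A Sox2-negative libraries ran from 100.7 to 257.9 CPM with a median of 158 CPM, so a single Sox2-positive library exceeded all of them. In batch B the Sox2-negative libraries were at 201.9, 128.1, 264.0 and 168.5 CPM, and the Sox2-positive libraries ran from 85.2 to 235.1 CPM with a median of 198 CPM. The lowest 2 of these were the libraries numbered 1 and 2, at 98.3 and 85.2 CPM, and the other 5 were at 191.5 CPM or more. The log2 fold change of Sox2-positive against Sox2-negative cells was 0.45 in batch A (SE 0.20, edgeR adjusted p 0.0724) and, for batch B, -0.13 (SE 0.26, adjusted p 0.693). The exact permutation test on the means gave p 0.026 in batch A, unadjusted for the 12 such tests made, and 0.652 in batch B. Without the libraries numbered 1 and 2 the batch B log2 fold change was -0.071 (edgeR adjusted p 0.744). The value over both batches moved from 0.14 to 0.31 (edgeR adjusted p 0.518 and 0.0950). That between batches in Sox2-positive cells moved from -0.45 to -0.19 (edgeR adjusted p 0.257 and 0.713). The batch A difference passed in 4 of 7 other settings of the fit, among them DESeq2 (0.46, adjusted p 0.0495) and limma-voom (0.50, adjusted p 0.0213), and also without Sox2-negative library 1 (0.64, adjusted p 0.00616).

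Dnmt3b, the second de novo enzyme (ENSMUSG00000027478.15, chr2:153649450-153687730, plus strand), was the least counted of the 6 in every group. Batch B Sox2-negative libraries held 20.4, 12.4, 14.0 and 21.5 CPM. Batch B Sox2-positive libraries ran from 2.64 to 16.6 CPM with a median of 6.76 CPM, and 6 of the 7 lay below all Sox2-negative ones. In batch A the ranges, 3.22 to 25.6 CPM with a median of 14.8 CPM in Sox2-negative and 5.34 to 20.7 CPM with a median of 10.8 CPM in Sox2-positive libraries, overlapped throughout. The lowest library held 11 counts. Dnmt3b was called lower in Sox2-positive cells in batch B (log2 fold change -1.14, SE 0.40, edgeR adjusted p 0.0243; exact permutation p 0.0182) and over both batches (-0.82, SE 0.35, edgeR adjusted p 0.0453). It was not called in batch A (-0.46, SE 0.53, adjusted p 0.516), and the interaction was -0.75 (SE 0.69, adjusted p 0.614). The call over both batches was lost in 17 of 23 fits that each left out 1 library, where the value stayed between -0.94 and -0.67. The batch B call was lost without Sox2-negative library 1 or 4 (-1.04 and -1.01), and held without the libraries numbered 1 and 2 (-1.55, adjusted p 0.0306). Without those the exact permutation p in batch B was 0.0476, and the value over both batches was -0.80 (edgeR adjusted p 0.102).

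Tet2, an oxidase without the CXXC domain that its relatives carry for binding DNA (ENSMUSG00000040943.12, chr3:133463679-133545139, minus strand), was the Tet gene that differed between the populations. Batch A Sox2-negative libraries spread from 57.8 to 192.1 CPM with a median of 98.2 CPM, and batch A Sox2-positive libraries from 44.2 to 72.2 CPM with a median of 66.1 CPM. The 4 batch B Sox2-negative values were 42.0, 61.5, 106.2 and 33.3 CPM. Batch B Sox2-positive libraries ran from 25.9 to 58.0 CPM with a median of 41.4 CPM. The populations overlapped in both batches, with the widest spread in batch A Sox2-negative cells. Tet2 was lower in Sox2-positive cells over both batches (log2 fold change -0.79, SE 0.20, edgeR adjusted p 0.00146) and in batch A (-0.93, SE 0.27, adjusted p 0.0103; exact permutation p 0.0281). In batch B it missed the threshold (-0.56, SE 0.27, edgeR adjusted p 0.0883; exact permutation p 0.164), though it passed without Sox2-negative library 4 (-0.75, edgeR adjusted p 0.0208). The exact permutation p of batch A was 0.0541 to 0.0823 whichever of its Sox2-positive libraries was left out. Without the libraries numbered 1 and 2 the batch B log2 fold change was -0.93 (edgeR adjusted p 0.0513) and that over both batches -0.89 (edgeR adjusted p 0.00227). The interaction was 0.31 (SE 0.40, adjusted p 0.754). Batch B against batch A gave -0.90 in Sox2-negative (edgeR adjusted p 0.0596) and -0.59 in Sox2-positive cells (edgeR adjusted p 0.176), neither called. Without the libraries numbered 1 and 2 these were -0.72 and -0.76 (edgeR adjusted p 0.391 and 0.166). The Sox2-negative difference between batches passed in some other settings of the fit. Leukocyte markers, given above for the Sox2-negative groups, summed to at most 12.5 CPM in Sox2-positive libraries, and their part in the Tet2 values was not tested.

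Tet3 (ENSMUSG00000034832.15, chr6:83362373-83459084, minus strand), the Tet enzyme known for acting in the fertilised egg, differed between the batches and not between the populations. Sox2-negative cells of batch A held 23.8 to 67.5 CPM with a median of 47.0 CPM, and those of batch B 87.1, 79.2, 129.8 and 60.8 CPM. Sox2-positive cells of batch A held 30.8 to 65.2 CPM with a median of 36.9 CPM, and those of batch B 84.1 to 121.3 CPM with a median of 108 CPM. Within Sox2-positive cells the batches did not overlap, and within Sox2-negative cells only library 4 of batch B fell into the batch A range. The share of all genes that separate the batches in this way was not computed, so nothing particular to Tet3 is read from it. The batch B level was 2.46-fold higher in Sox2-positive cells (log2 fold change 1.30, SE 0.22, edgeR adjusted p 0.000150) and 1.91-fold higher in Sox2-negative cells (0.93, SE 0.24, adjusted p 0.0126). Without the libraries numbered 1 and 2 these were 1.25 (adjusted p 0.00265) and 1.01 (adjusted p 0.0880). The Sox2-negative call was also lost without batch B library 3 (0.73, adjusted p 0.0737). Between the populations, Tet3 was at -0.22 in batch A and 0.21 in batch B (edgeR adjusted p 0.543 and 0.330). Without batch B Sox2-negative library 3 the latter became 0.45 and passed (adjusted p 0.0271). Markers of other cells also moved between the Sox2-positive groups. The 6 glial and neural crest markers summed to 789 to 1014 CPM in batch A and 37.7 to 75.5 CPM in batch B. The 6 ameloblast markers summed to 292 to 359 and 6.73 to 10.6 CPM. The 9 mesenchymal markers summed to 1402 to 1955 and 706 to 863 CPM, with 3 of 9 called lower in batch B. Their part in the Tet3 difference was not tested. The day, the mice and any handling step that went with them cannot be told apart as sources of a batch difference.

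Tet1 (ENSMUSG00000047146.17, chr10:62804570-62908996, minus strand), which is best known from embryonic stem cells and the germline, was called in no comparison, nor under any alternative or with any library left out. It ranged from 6.14 to 47.0 CPM in batch A Sox2-negative libraries (median 22.04 CPM) and from 7.16 to 24.5 CPM in batch A Sox2-positive libraries (median 21.6 CPM). Batch B Sox2-negative libraries held 38.1, 64.1, 45.9 and 31.1 CPM, and batch B Sox2-positive libraries 22.5 to 53.1 CPM with a median of 36.9 CPM. All 4 groups overlapped their neighbours. Batch B against batch A gave log2 fold changes of 0.81 in Sox2-negative (SE 0.42, edgeR adjusted p 0.226) and 0.94 in Sox2-positive cells (SE 0.37, adjusted p 0.119). Of the 6 genes, Tet1 and Dnmt3b had the largest spread relative to the mean in batch A Sox2-negative libraries, at 64.8% and 65.2%, against 18.7% for Dnmt1.

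**Figure D3:**
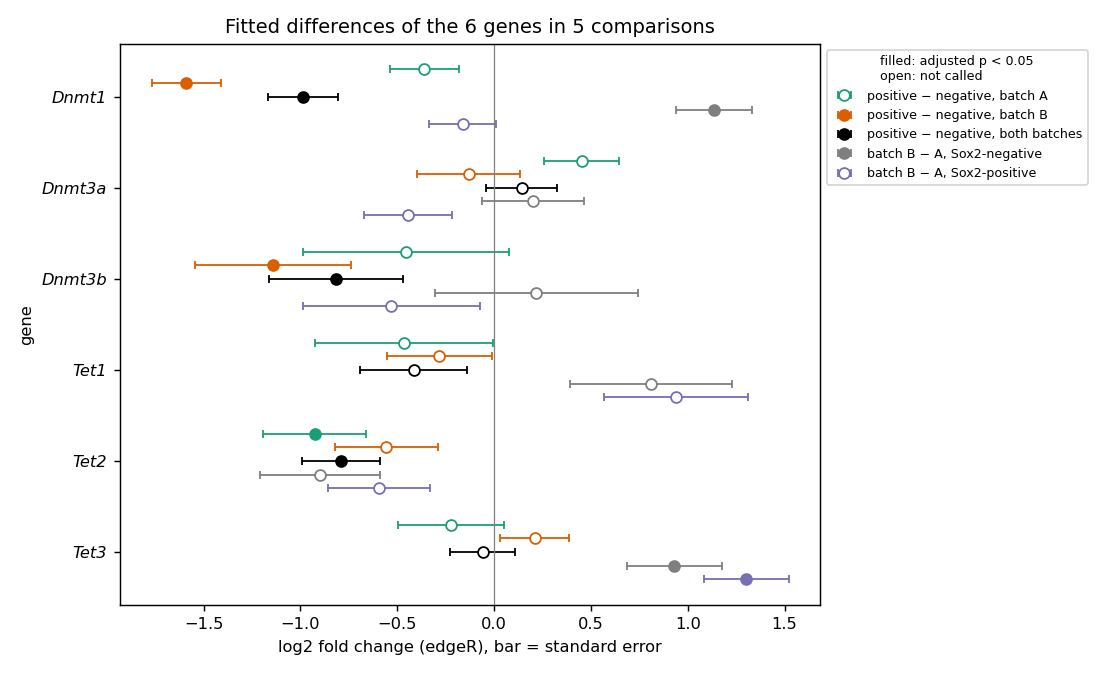
Log2 fold changes (x axis) of the 6 genes (y axis) in 5 comparisons, from edgeR, with bars of 1 standard error; filled points are called at an adjusted p under 0.05. Filled points to the left of 0 belong to Dnmt1, Dnmt3b and Tet2 in comparisons of the populations, and filled points to the right belong to Dnmt1 and Tet3 in comparisons of the batches.

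Set against all genes tested, the 6 were not called more often than the rest between populations. Over both batches 3 of 6 were called lower in Sox2-positive cells and 0 higher by edgeR, whereas 57.5% of the 17190 genes tested were called, 32.5% lower and 24.9% higher. The count of members higher was also 0 at an unadjusted p under 0.05, by DESeq2 and by limma-voom. Their median log2 fold change was -0.60, and that of all genes was -0.12. In batch A 1 of 6 was called, lower, against 43.4% of 14296 genes (24.2% lower, 19.3% higher), and in batch B 2 of 6, both lower, against 54.7% of 15765 genes (27.6% lower, 27.1% higher). The interaction was called for 1 of 6 and for 7.04% of genes (4.22% lower, 2.82% higher). Within Sox2-negative cells 2 of 6 differed between the batches, both higher in batch B, against 11.2% of genes (5.85% higher, 5.35% lower). For Sox2-positive cells it was 1 of 6, also higher, against 10.4% (4.85% higher, 5.54% lower). Dnmt1 in batch B was the only member whose populations did not overlap in CPM, a state reached by 38.1% of genes there (18.9% with all Sox2-positive libraries lower). In batch A 28.4% of genes reached it (14.6% lower), and no member did.

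To compare levels between genes, CPM was divided by transcript length in kilobases, using the longest annotated transcript of each gene. On this scale Dnmt3a ranked first of the 6 in 3 groups. Its means were 16.9 ± 6.12 CPM per kb in batch A Sox2-negative (SD, n = 6) and 24.3 ± 1.96 in batch A Sox2-positive libraries (n = 6), and it also led in batch B Sox2-positive libraries. In batch B Sox2-negative libraries Dnmt1 ranked first, at 34.1 ± 7.53 CPM per kb against 19.7 ± 5.93 for Dnmt3a (n = 4). Dnmt1 took 44.2% ± 8.73 of the summed Dnmt level in Sox2-negative and 31.9% ± 4.15 in Sox2-positive libraries of batch A, and 59.0% ± 10.01 and 37.5% ± 12.9 in those of batch B. Its share was lower on average in Sox2-positive cells of each batch, with ranges that overlapped in both. The batch B overlap rested on the Sox2-positive libraries numbered 1 and 2, at 57.9% and 54.2%. The other 5 lay between 27.7% and 34.3%, below the lowest Sox2-negative share of 45.0%. Dnmt3b took between 5.88% and 9.56% on average in each group.

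The Tet family changed its leading member between the batches. Tet2 held 65.4% ± 7.93 of the summed Tet level per length in batch A Sox2-negative and 56.8% ± 6.38 in batch A Sox2-positive libraries, the largest share in both. In batch B Tet3 led, with 46.4% ± 5.65 in Sox2-negative and 57.2% ± 3.42 in Sox2-positive libraries, while Tet2 held 35.4% ± 5.93 and 27.0% ± 4.95. The highest Tet3 share of any batch A library was 40.9% and the lowest of any batch B library was 39.4%. The log2 ratio of Tet3 to Tet2 in CPM averaged -1.22 and -0.60 in the Sox2-negative and Sox2-positive libraries of batch A, and 0.64 and 1.35 in those of batch B. Its highest batch A value was -0.0053 and its lowest batch B value 0.29, so each of the 12 batch A libraries lay below each of the 11 batch B libraries. How often other ratios of genes do so was not computed. With the median length of the protein-coding transcripts in place of the longest, Tet2 still led in batch A and Tet3 in batch B.

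**Figure D4:**
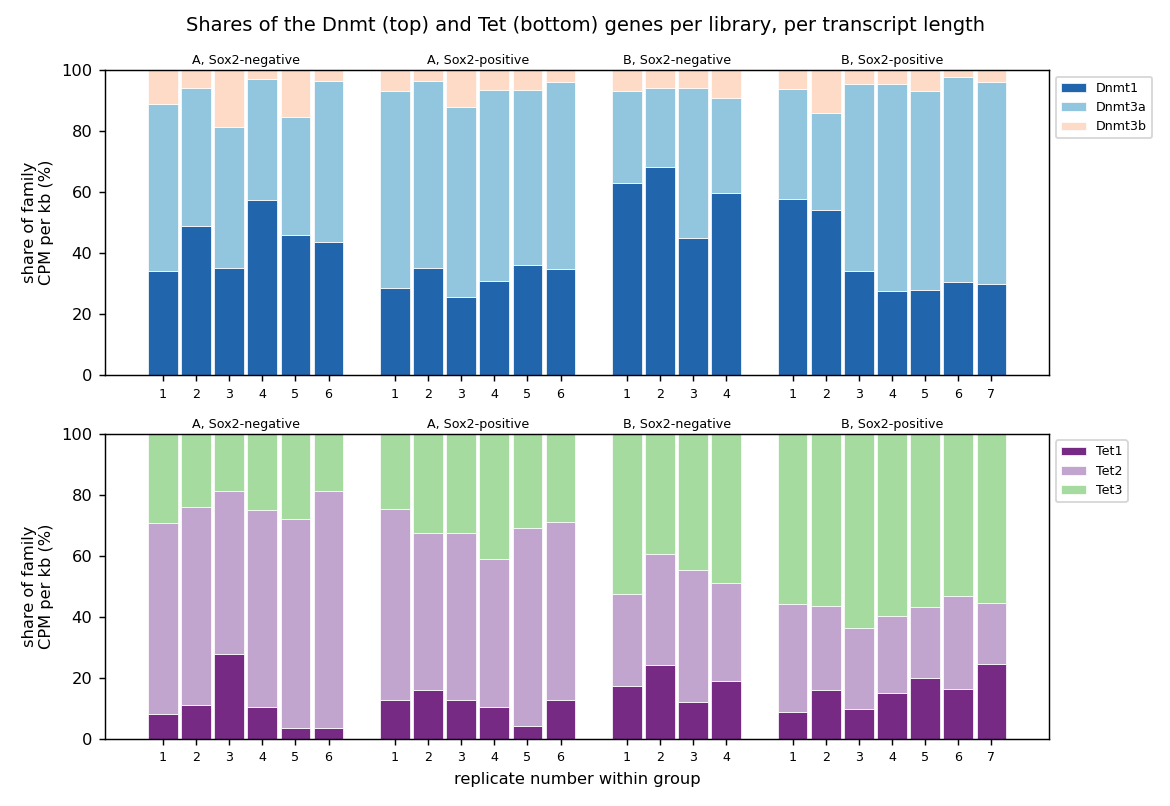
Share of the Dnmt genes (upper panel) and Tet genes (lower panel) in the summed CPM per kilobase of their family, in percent (y axis), for each library (x axis, numbered within the 4 groups). Tet2 holds the largest part of each batch A bar and Tet3 of each batch B bar on average (57.2% in batch B Sox2-positive libraries), and the Dnmt1 part is tallest on average in batch B Sox2-negative libraries (59.0%).

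Genes with the pattern most like each member were sought among 11058 genes with a mean of at least 10 CPM, by Pearson's r of log2 CPM over the 23 libraries. These correlations are descriptions, since the libraries share batch, population and depth. The 3 closest to Dnmt1 were P4hb (r = 0.885), Itgav (0.876) and Rack1 (0.873). Those closest to Dnmt3a were Pcbp1 (0.792), Gpd2 (0.769) and Thop1 (0.750), and those closest to Dnmt3b were Ikzf5 (0.706), Sdk1 (0.703) and Nf1 (0.701). For Tet1 they were Lrig3 (0.825), Kpna2 (0.785) and Sall2 (0.764). Tet2 was followed most closely by Nme1 (0.872), Ccnl2 (0.818) and Anxa5 (0.802), and Tet3 by Zdhhc9 (0.828), Metrnl (0.824) and Notch2 (0.815). No member was among the closest genes of another.

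Partners of the writers were examined next, as 10 genes that act with the methyltransferases. Of the 8 that passed the filter, 1 was called higher and 3 lower in Sox2-positive cells over both batches (median log2 fold change -0.28). Here and for the lists that follow, the count over all genes was 24.9% higher and 32.5% lower with a median of -0.12, and nothing particular to a list is read from its count. Usp7, a deubiquitinase that binds Dnmt1 and Uhrf1, had the largest change, -1.73 (SE 0.14, edgeR adjusted p 5.30e-11), and it was called in batch A (-1.87) and in batch B (-1.47). Uhrf2, the paralog of Uhrf1, was at -0.77 and Trim28, a co-repressor that keeps imprinted regions methylated, at -0.59 (adjusted p 6.19e-05 and 4.53e-07). Uhrf1 was the gene called higher, at 0.63 (adjusted p 0.00147). Dnmt3l, a cofactor of the de novo enzymes in germ cells, and Dppa3, which protects methylation in the early embryo, had no count in 22 of 23 libraries each and were not tested. Hells, a chromatin remodeller needed for methylation of repeats and chosen after its values were seen, was lower in batch B (-0.75, adjusted p 0.00357) and at 0.042 in batch A (adjusted p 0.919). Its interaction was not called (-0.86, adjusted p 0.166).

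Of 17 partners of the Tet enzymes and base excision genes, 7 were called higher and 1 lower in Sox2-positive cells over both batches, and 9 were not called (median log2 fold change 0.26). Cxxc4, which binds Tet2 and lowers its protein, was higher (2.15, SE 0.41, edgeR adjusted p 6.47e-05), with means of 23.1 and 54.7 CPM in the Sox2-positive and 7.30 and 7.17 CPM in the Sox2-negative libraries of batches A and B. Apex1, the endonuclease that cuts at abasic sites, was at 1.03 (adjusted p 2.63e-08), and Idh1, which makes the 2-oxoglutarate that Tet enzymes consume, at 0.94 (adjusted p 1.85e-05). Gadd45b was at 0.73 (adjusted p 0.0116). Neil2, a glycosylase, was the gene called lower (-1.67, adjusted p 0.0129), at means of at most 2.38 CPM, and its call was lost without the batch B libraries numbered 1 and 2 (-1.49, adjusted p 0.073). Tdg, the glycosylase that removes oxidised methylcytosine, was chosen after its values were seen: it was higher in batch A (1.30, adjusted p 0.000909) and at 0.11 in batch B (adjusted p 0.527). Its interaction was -1.26 (adjusted p 0.0125), not called without the libraries numbered 1 and 2 (-1.18, adjusted p 0.125). Cxxc5, also named after its values were seen, averaged 50.3 CPM in Sox2-positive and 31.6 CPM in Sox2-negative libraries of batch A. In batch B those means were 24.1 and 48.6 CPM. The Cxxc5 interaction was called by edgeR, but not without the libraries numbered 1 and 2 (-1.69, edgeR adjusted p 0.0724).

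Of 8 genes listed as readers of methylated CpG or their relatives, 2 were called higher and 3 lower over both batches (median -0.30), shares near the 24.9% and 32.5% of all genes. Zbtb38, a zinc finger protein that binds methylated CpG, was higher (1.99, SE 0.17, edgeR adjusted p 2.41e-10), at 2.34 within batch A and 1.68 within batch B. Mbd3 was also higher (0.52, adjusted p 0.00239). Mbd2, which brings the NuRD complex to methylated DNA, was lower (-1.27, adjusted p 1.85e-06), as were the glycosylase Mbd4 (-0.74, adjusted p 0.00158) and Zbtb4 (-0.67, adjusted p 0.00631). The Mbd4 call was lost without the libraries numbered 1 and 2 (-0.50, adjusted p 0.059). The interaction was called by edgeR for 0 of these 8 genes, and 2, Zbtb38 (-0.73) and Zbtb4 (0.92), had an unadjusted p under 0.05.

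Genes of the S-adenosylmethionine cycle supply the methyl donor of all methyltransferases. Of 11, 5 were called higher and 2 lower in Sox2-positive cells over both batches (median 0.077), a total near the 57.5% of all genes. The folate enzymes Shmt1 (1.56), Mthfd1 (1.10) and Shmt2 (1.10) were higher, and Mtr, which remethylates homocysteine, was lower (-1.36; edgeR adjusted p 0.000155, 1.60e-06, 8.65e-06 and 0.00102). Gnmt had no count in any batch A Sox2-negative library and averaged 2.51 CPM in Sox2-positive libraries of batch A, and 1.64 and 2.63 CPM in Sox2-negative and Sox2-positive libraries of batch B. Mat2a, the enzyme that makes S-adenosylmethionine, was chosen after its values were seen. It averaged 521 ± 39.99 CPM in batch B Sox2-negative libraries (SD, n = 4), with a range of 484 to 573 CPM, and 147 ± 17.3 CPM in the Sox2-positive ones (n = 7). In batch A its means were 285 ± 47.9 (n = 6) and 239 ± 25.5 CPM (n = 6). As for Dnmt1, the batch B Sox2-negative libraries lay above all others, and the interaction was called (-1.58, SE 0.16, edgeR adjusted p 3.08e-07; -1.42 to -1.58 over 8 alternatives, all called).

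**Figure D5:**
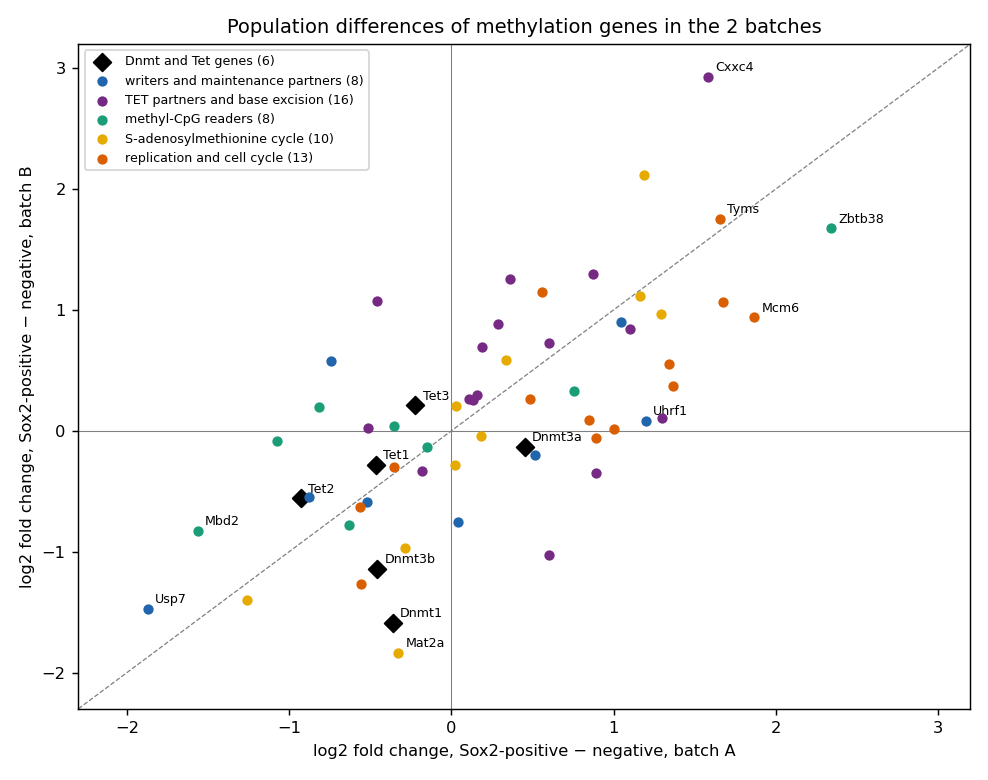
Log2 fold change of Sox2-positive against Sox2-negative cells in batch A (x axis) and batch B (y axis) for the 6 genes (diamonds) and the genes of 5 lists (circles) tested in both batches; the dashed line marks equal values. Dnmt1 (-0.36 and -1.59) and Mat2a (-0.33 and -1.84) lie far below the line, and so do Cxxc5, Tdg and Uhrf1. Tet2 (-0.93 and -0.56), Tet1 and Dnmt3a lie nearer to it.

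Replication genes were listed because Dnmt1 acts at the fork. All 13 were called over both batches, 10 higher and 3 lower in Sox2-positive cells (median 0.50). Tyms (1.67), Mcm6 (1.39), Rrm2 (1.35) and Mcm2 (0.93) were higher, and Mcm3 was lower (-0.93; edgeR adjusted p 2.94e-10, 4.29e-09, 2.04e-09, 2.71e-05 and 4.36e-06). Mki67 (-0.37) and Top2a (-0.63), which mark dividing cells, were the other genes called lower, and were named after their values were seen. The Mki67 call was lost with no filter (-0.28, edgeR adjusted p 0.0946) and with total-count scaling (-0.25, edgeR adjusted p 0.0587). With a replicate block the calls of Ccna2 (0.44, edgeR adjusted p 0.0943) and Mcm4 (0.38, edgeR adjusted p 0.103) were lost. Ccna2 was also not called by limma-voom (0.33, adjusted p 0.0848). In batch A 9 were called higher and 2 lower, and in batch B 5 and 2, with 4 called interactions, all negative. Those 4 calls were lost without the libraries numbered 1 and 2. The summed level ran from 1098 to 1366 CPM in batch B and from 1096 to 1381 CPM in batch A Sox2-negative libraries, with 1 of the 13 called higher and 2 lower in batch B. The part of replication in the Dnmt1 differences was not tested. Sox2-positive libraries summed to 1964 to 2366 CPM in batch A and 1398 to 1535 CPM in batch B.

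Germline genes that promoter methylation is known to keep silent were at low levels or undetected. Of 12, 2 passed the filter and 1 was called: Rhox5, an X-linked homeobox gene, was at 0 in all batch A Sox2-negative libraries and averaged 1.28 CPM in Sox2-positive libraries of batch A, and 0.28 and 1.77 CPM in Sox2-negative and Sox2-positive libraries of batch B. The highest Rhox5 library held 4.70 CPM. Slc25a31 reached 18.8 CPM in its highest library, of batch A Sox2-negative cells, where its group median was 0.24 CPM. Tdrd9 reached 7.43 CPM in its highest library, of batch B Sox2-positive cells. Summed over the 12, no library exceeded 19.0 CPM, and between 4 and 6 of them had no count in any library of a given group.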

How the data were processed

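RNA from sorted cells was amplified by Smart-seq2 and tagged with Tn5, per the labels' protocols. The submitters' processing notes name FastQC, Trimmomatic and Salmon, without versions, and the mm10 build. The deposited table holds estimated counts per gene made by the authors, with 0.000436% of the nonzero values whole within 1e-06, and column totals lie within 0.111 of a whole number. Whether they were scaled for length is not given in the sources used here. In 6911 single-transcript genes with low values the smallest nonzero value had a median of 0.967, close to 1 read.

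Counts were rounded and tested with edgeR 4.0.16 (quasi-likelihood, TMM, filterByExpr; R 4.3.3), with p-values adjusted by Benjamini-Hochberg over all genes tested and called under 0.05. The contrast over both batches had batch as a covariate. The single-batch contrasts used that batch's libraries. The interaction and the contrasts between batches came from a fit of all 4 groups. CPM values were computed with TMM factors. For single members, group means in 1 batch were compared with exact permutation tests, two-sided. Of the identifiers, 99.5% matched a symbol in the reference gene table. Gene positions and transcript lengths came from the GENCODE annotation of GRCm38, and sequences from RefSeq. Alternatives were DESeq2 1.42.0, limma-voom (limma 3.58.1), other scalings and filters, a replicate block and left-out libraries. The fits were tested on simulated data with 4-fold changes. The interaction recovered the fewest changes, 32.6%, and its share of false calls, 11.6%, exceeded the threshold. An interaction that was not called therefore does not show that the batches were alike.

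The members and lists were chosen with earlier results of these data known. Named with values were the members, Sox2, up to 5 genes a list with the largest called change over both batches, and the 3 genes most like each member. Mat2a, Tdg, Cxxc5, Hells, Mki67, Top2a, Ccna2, Mcm4, Slc25a31 and Tdrd9 were named after their values were seen. Chromatin accessibility libraries were not analysed here. The level of 1 marker gene is not reported here.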

Additional observations from a re-analysis of the deposited data

Results flagged for a closer look

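The population difference of Dnmt1 differed between the batches by a test of the difference itself. Its log2 fold change in Sox2-positive against Sox2-negative cells, -0.36 for batch A, was -1.59 for batch B, and the interaction was -1.30 (SE 0.26, edgeR adjusted p 0.00198). It stayed called in all 23 fits that each left out 1 library, between -1.43 and -1.16, and in 8 other settings, between -1.42 and -1.15. In simulated data 11.6% of the genes called for the interaction were false calls. By Dixon's test, which looks for 1 extreme library, none was found in the 24 sets of a member's levels in a group. That test cannot find a pair such as the batch B Sox2-positive libraries numbered 1 and 2, which were low together in Dnmt3a.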

How the results depend on the processing

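The Dnmt1 calls over both batches, in batch B, in the interaction and between batches in Sox2-negative cells, the Tet2 call over both batches and the Tet3 call between batches in Sox2-positive cells held under every alternative and with each library left out. Replicate numbers showed no pairing in correlations of deviations from the group means: same-numbered populations were at -0.021 to 0.043. Own numbers correlated best for 1 of 6 and 0 of 4 libraries. In batch B, Sox2-negative and Sox2-positive libraries numbered 1 and 2 correlated at 0.039 to 0.059, and all other pairs at 0.030 or less. Such low correlations cannot exclude that same-numbered libraries share mice. With a replicate block the interaction was called for 557 genes against 1210, Tet2 in batch A was at -0.82, Dnmt3b at -1.03 in batch B and -0.63 over both batches, none of them called, and the Tet1 interaction was at -0.40. Without the batch B libraries numbered 1 and 2, counts called were 481 for the interaction, 754 (against 1924) between batches in Sox2-negative and 1159 (against 1785) in Sox2-positive cells; limma-voom called 3313 of the last. Then also Tet3 between batches in Sox2-negative cells (1.01) and Dnmt3b over both batches (-0.80) lost their calls, the Tet2 interaction was -0.044 and Tet1 in batch B differed by 0.146 CPM. Dnmt3b over both batches was also not called with a filter at a mean of 10 counts (-0.78), no filter (-0.74) or total-count scaling (-0.70). Tet3 over both batches turned from -0.059 to 0.079 with limma-voom, 0.020 with no filter and 0.062 with total-count scaling. Tet2 between batches in Sox2-negative cells passed with DESeq2 (-0.95), RLE factors (-0.94), limma-voom (-0.95), no filter (-0.89) and total-count scaling (-1.04), and in Sox2-positive cells with limma-voom (-0.61), where the Tet1 interaction was -0.24. Dnmt3a in batch A passed with DESeq2 (0.46), limma-voom (0.50), no filter (0.52) and total-count scaling (0.53). The cause of these changes was not tested.

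With each library left out, log2 fold changes ran between batches in Sox2-negative cells from -1.28 to -0.67 for Tet2 and 0.73 to 1.09 for Tet3, in the interaction from -0.13 to 0.36 for Tet1, in batch A from 0.35 to 0.64 for Dnmt3a, in batch B from -0.28 to 0.066 for Dnmt3a, -1.47 to -0.98 for Dnmt3b, -0.75 to -0.14 for Tet2 and 0.068 to 0.45 for Tet3, and over both batches from -0.94 to -0.67 for Dnmt3b and -0.14 to 0.068 for Tet3. Level differences ran from -21.5 to -11.9 CPM for Dnmt1 and -61.2 to -34.4 CPM for Tet2 in batch A, and from -37.1 to 8.14 CPM for Dnmt3a, -28.3 to -3.97 CPM for Tet2 and 5.38 to 28.4 CPM for Tet3 in batch B. The exact permutation p of Dnmt1 in batch A became 0.0281 without Sox2-negative library 3. That of Tet2 in batch A was 0.0541 to 0.0823 whichever Sox2-positive library was left out. Total-count scaling moved the median of all genes over both batches from -0.12 to 0.0034 and in Sox2-negative cells between batches from -0.0041 to -0.15. Of the genes called, 4288 higher and 5591 lower over both batches became 4966 and 5051, and 1005 and 919 in Sox2-negative cells between batches became 661 and 1388. No called member changed direction under a scaling. Dnmt3b is limited by depth, with 11 counts in its lowest library.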
